A study of Mus musculus with 18 samples.

Results

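The data described here are the RNA levels of 9 myelin genes of mature oligodendrocytes in the mouse substantia nigra: Mbp, Mobp, Mal, Cldn11, Cnp, Mag, Mog, Ermn and Opalin. They were taken as the rows of the deposited gene table that carry these symbols, 9 of 55270 rows, and were followed across all 18 libraries. The 18 libraries came from 3 groups of 6 mice each: intact wild-type mice, mice given an adeno-associated virus (AAV) for GFP (AAV-GFP, the vector control), and mice given an AAV for SIRT3 (AAV-SIRT3), a mitochondrial NAD-dependent deacetylase. All were 3 months old when RNA was taken from whole substantia nigra tissue, which in the injected groups was 1 month after the virus. Poly(A) RNA was sequenced as stranded paired-end libraries of 100 bp reads. The labels gave no mouse strain or sex, and no AAV serotype, dose, promoter or injected volume. Intact mice differed from both other groups by the whole injection, so virus, surgery and transgene cannot be told apart there, while AAV-SIRT3 and AAV-GFP differed by the transgene.

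Oligodendrocytes wrap axons in myelin, a stack of membrane that is compacted into an insulating sheath, and the genes for its main proteins are switched on together when a precursor matures. MBP and MOBP bind the cytoplasmic faces of the compacted membrane, CNP and MAG sit in the uncompacted channels and at the axon, and MOG marks the outermost surface. The substantia nigra is crossed by myelinated fibre tracts, and its dopaminergic neurons send their axons to the striatum. In bulk tissue, fewer oligodendrocytes and less myelin RNA per oligodendrocyte cannot be told apart.

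Values are reads per gene divided by 1 size factor per library, called normalised reads below. Between 47182529 and 64728587 reads per library were assigned to genes, and the 9 genes took 1.19 ± 0.089% of them in intact mice, 1.23 ± 0.071% after AAV-GFP and 1.26 ± 0.061% after AAV-SIRT3 (mean ± SD, n = 6 each). Sirt3 itself, as a check of the labels, had a lowest, median and highest value of 1684, 1756 and 1936 normalised reads after AAV-GFP and of 1801, 1953 and 2041 after AAV-SIRT3. These ranges overlapped, and the log2 difference of 0.13 (standard error, SE, 0.042) had an adjusted p of 0.183 in limma; without AAV-GFP replicate 2 it had an adjusted p of 0.0390. The labels do not say whether RNA of the transgene would be counted under the mouse gene. The libraries of 3 intact mice stood apart: the mean log2 value of 7 genes of thalamic neurons, called the thalamus score below, was 11.2 to 11.3 in intact replicates 1, 3 and 5 and 12.1 to 12.7 in the other 15 libraries. Results against intact mice are given with all libraries, and with this score as a covariate and without those 3 libraries where that changed a call, turned a direction or moved an estimate by over 1.5 times.

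The RefSeq promoter table (GRCm38.p6) held 8 of the 9 genes, all except Mbp. The windows of 250 bases before the start were searched on both strands for the letters CTGGCAC or CTGGTAC, which match the recognition sequence of MYRF, the transcription factor of myelin genes, and for ACAAAG or ACAATG, which match that of SOX factors such as SOX10. MYRF letters lay in 3 windows (Mog, Mag and Cnp) and SOX letters in 5 (Mag, Mobp, Cnp, Ermn and Opalin), no match of either overlapped a match of the other, and the windows of Mal and Cldn11 held neither. Of all 32851 windows of this length, 5.93% held MYRF letters and 25.2% SOX letters. Mobp had 6 SOX matches, the most of the members searched, and its own window was the 1 of 32851 that reached this number. Mog, Mag and Cnp, the 3 with MYRF letters, were also the set whose RNA levels varied together most closely across libraries (below). Opalin, without MYRF letters, followed Cnp at a Pearson r of 0.77, and Mbp, without a window, followed Mag at 0.75. Whether the letters bear on the shared variation was not tested. The windows of Mog, Mag, Cnp and Mobp were chosen for printing. Each is printed from 250 to 51 bases before the start, on the gene's strand, with matches in capitals: Mog at chr17:37023449-37023648 (-), Mag at chr7:30914914-30915113 (-), Cnp at chr11:100574689-100574888 (+) and Mobp at chr9:120149492-120149691 (+).
Mog: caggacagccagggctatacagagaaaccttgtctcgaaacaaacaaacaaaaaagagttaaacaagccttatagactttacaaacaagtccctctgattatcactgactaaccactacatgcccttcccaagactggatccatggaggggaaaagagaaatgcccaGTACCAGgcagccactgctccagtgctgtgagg
Mag: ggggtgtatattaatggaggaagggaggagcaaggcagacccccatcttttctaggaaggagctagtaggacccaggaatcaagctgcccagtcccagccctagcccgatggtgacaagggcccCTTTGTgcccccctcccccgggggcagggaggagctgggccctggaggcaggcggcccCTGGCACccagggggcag
Cnp: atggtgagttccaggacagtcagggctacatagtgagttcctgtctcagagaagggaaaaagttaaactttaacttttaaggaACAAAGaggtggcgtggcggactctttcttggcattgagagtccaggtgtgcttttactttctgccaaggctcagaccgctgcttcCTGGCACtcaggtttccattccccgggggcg
Mobp: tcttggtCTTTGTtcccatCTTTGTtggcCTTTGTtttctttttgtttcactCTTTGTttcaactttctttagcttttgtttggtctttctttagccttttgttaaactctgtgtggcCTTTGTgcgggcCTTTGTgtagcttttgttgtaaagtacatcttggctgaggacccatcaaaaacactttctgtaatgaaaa
The MYRF letters lay 83 to 77 bases before the start of Mog, where they read on the opposite strand, 68 to 62 before that of Mag and 81 to 75 before that of Cnp. A match of letters is a description of the sequence; binding was not measured.

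In the GENCODE M21 annotation of GRCm38 the 3 genes that passed the test against intact mice (below) were Cldn11 at chromosome 3, 31149920 to 31164324 on the plus strand, Mobp at chromosome 9, 120149707 to 120181484 on the plus strand, and Mal at chromosome 2, 127633226 to 127656695 on the minus strand. Each value counts reads over a whole gene, so exons and isoforms are not separated. Mobp shared sequence with Gm38642 on its own strand, and Cnp, Ermn and Mog overlapped a gene on the other strand (Dnajc7, Galnt5 and Gm22388), as Mbp did with Rpl21-ps8. The strand setting of the counting was not given in the sources used here, so reads of these pairs may have been shared.

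Mbp was the most abundant of the 9 genes and the 5th of all genes in the table by mean value, at 380948 ± 44242 normalised reads in intact mice, 397379 ± 28307 after AAV-GFP and 408362 ± 24079 after AAV-SIRT3 (mean ± SD, n = 6). Mobp, the other binder of the cytoplasmic membrane faces, ranked 18th, and Opalin, a membrane glycoprotein of the inner and paranodal loops, ranked lowest at 3817th. Per kb of exon (the length of all exons of a gene merged), the mean level in intact mice ran from high to low in the order Mbp (44981 normalised reads per kb), Mobp (18327), Mal (11535), Cnp (10976), Cldn11 (8772), Mag (7049), Mog (5134), Ermn (3184) and Opalin (1184). The same order of means held after AAV-GFP and after AAV-SIRT3. Mal and Cnp were the neighbours whose ranges overlapped in every group, and Cnp and Cldn11 overlapped after AAV-SIRT3; the other neighbours did not overlap within a group. With the longest transcript as the length, Cnp came before Mal in every group, Mag came before Cldn11 in every group, and the place of Mag against Mal differed between groups, so the order of Cnp, Mal, Mag and Cldn11 depends on the length used.

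**Figure D1:**
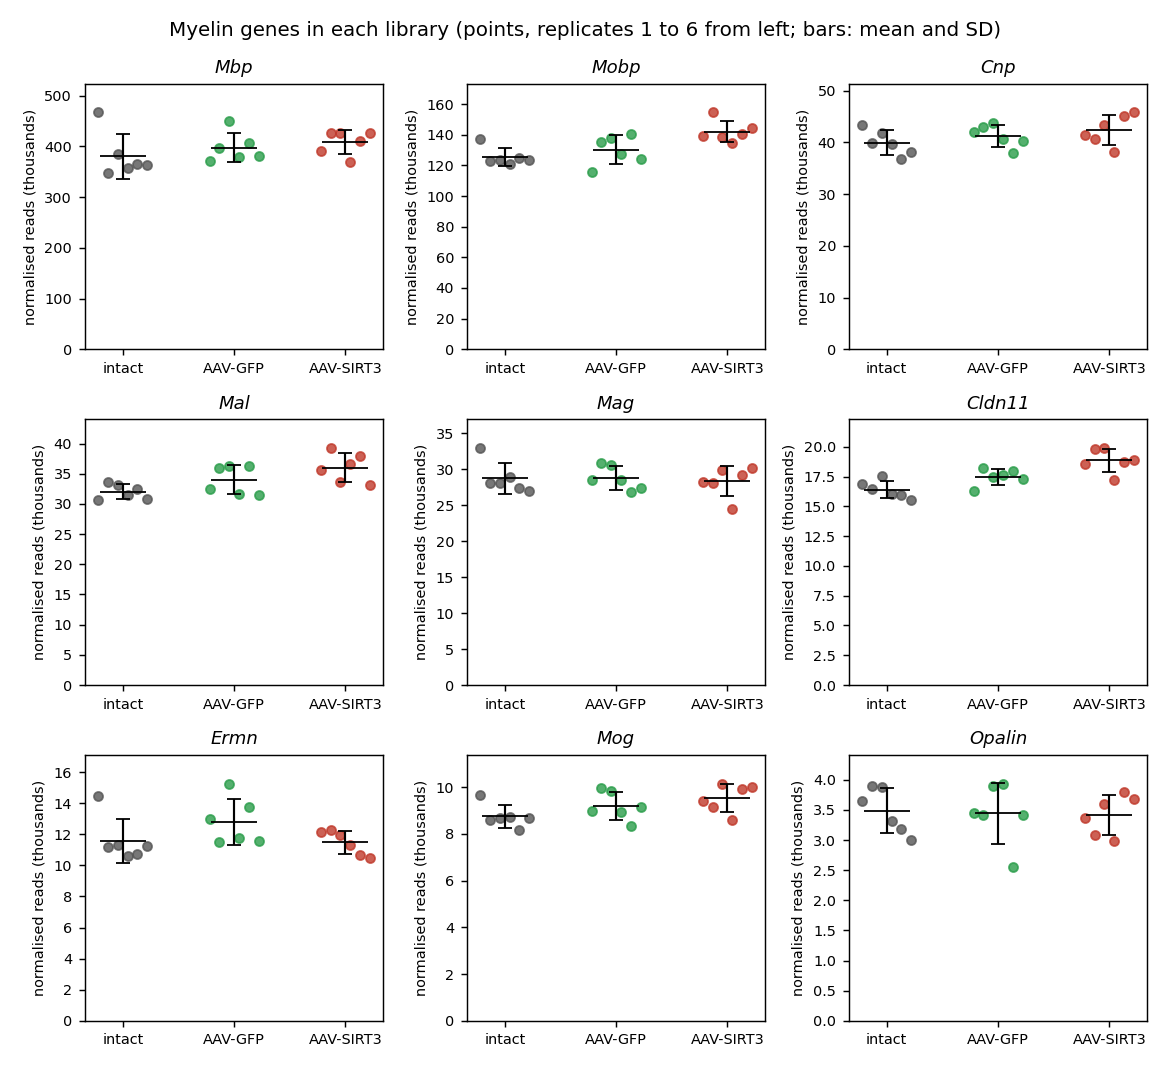
Normalised reads (linear axes that start at 0) of the 9 myelin genes in each of the 18 libraries; points are libraries, replicates 1 to 6 from left within each group, and bars give the mean and SD. The groups overlap for every gene, and the intact point farthest above its group for Mbp, Mag and Ermn is replicate 1.

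AAV-SIRT3 was set against AAV-GFP first, which bears on the question the study posed, how SIRT3 overexpression changes RNA in the substantia nigra. None of the 9 myelin genes passed the test (limma on log2(value + 1), all 18 libraries in 1 fit, Benjamini-Hochberg adjusted p under 0.05), where 0.113% of the 19443 genes tested did (22 genes; 0.036% higher and 0.0771% lower). At an unadjusted p under 0.05 limma gave 2 of the 9, Mobp and Cldn11, where 15.2% of all genes had such a p. On the recovered reads edgeR and DESeq2 called 0 of 9, where they called 0.123% and 1.60% of all genes. The median log2 difference of the 9 was 0.04 with 6 above 0, against -0.0041 and 48.6% above 0 over all genes tested.

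Among the proteins of compact myelin, Mobp had a lowest, median and highest value of 115391, 131443 and 140192 normalised reads after AAV-GFP and of 134732, 140035 and 154818 after AAV-SIRT3. Of the 36 pairings of an AAV-SIRT3 with an AAV-GFP library, 31 were higher with AAV-SIRT3, the groups overlapped, and the log2 difference was 0.13 (SE 0.050, adjusted p = 0.240 in limma), that is 9.32% with a 95% interval of 1.66 to 17.6%. Mbp lay between 371674 and 449242 after AAV-GFP and between 368324 and 427098 after AAV-SIRT3, and its difference of 2.82% had an interval of -6.97 to 13.6%. Mal, a proteolipid of membrane rafts in compact myelin, had medians of 34206 and 36101, and a difference of 5.81% with an interval of -1.31 to 13.4%. Cldn11, the claudin of the tight-junction strands between myelin layers, had values of 16306, 17552 and 18215 after AAV-GFP and of 17259, 18849 and 19915 after AAV-SIRT3. Above every AAV-GFP library lay 5 of the 6 AAV-SIRT3 libraries, yet the difference of 0.11 on the log2 scale (SE 0.039) had an adjusted p of 0.208 in limma, with an interval of 1.92 to 14.1%.

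The genes of uncompacted myelin and of its surfaces gave estimates on both sides of 0. Cnp, the 2',3'-cyclic nucleotide phosphodiesterase that keeps cytoplasmic channels open, differed by 2.69% (interval -4.32 to 10.2%), and Mag, the adhesion protein facing the axon, by -1.54% (-8.91 to 6.42%). Mog, the immunoglobulin-family protein of the outer surface, differed by 3.63% (-3.38 to 11.1%), and Opalin by -0.0964% (-12.2 to 13.7%). Ermn, which encodes an actin-binding protein of late differentiation, was the member with the lowest estimate. Its values were 11495, 12369 and 15245 normalised reads after AAV-GFP and 10496, 11626 and 12244 after AAV-SIRT3. The ranges overlapped, 9 of 36 pairings were higher with AAV-SIRT3, and the log2 difference was -0.15 (SE 0.074, adjusted p = 0.331 in limma). Over the 9 genes the intervals ran from -19.1% (Ermn) to 17.6% (Mobp) of the AAV-GFP level; they do not show that the levels were equal.

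The comparison of AAV-GFP with intact mice gives the background of the injection. None of the 9 genes passed the test in limma, edgeR or DESeq2, where limma called 1.84% of all genes (358 genes; 0.823% higher and 1.02% lower), and at an unadjusted p under 0.05 limma gave 1 of the 9, Cldn11, where 19.1% of all genes had such a p. The 9 had a median log2 difference of 0.07 and 8 were above 0 (7 with TMM factors, where Mag lay at -0.0026), against a median of 0.0007 and 50.2% above 0 over all genes.

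Ermn had the largest estimate, with 10607, 11189 and 14442 normalised reads in intact mice and 11495, 12369 and 15245 after AAV-GFP, a log2 difference of 0.14 (SE 0.074, adjusted p = 0.292 in limma). Below every AAV-GFP library lay 5 of the 6 intact libraries, and the remaining library, replicate 1, lay above all AAV-GFP libraries but replicate 3. Cldn11 was 6.65% higher (interval 0.781 to 12.9%, adjusted p = 0.199 in limma) and Mal 6.04% (-1.09 to 13.7%). Mog, Mbp, Mobp and Cnp lay between 3.41% and 5.08%, and Mag at 0.216% and Opalin at -1.79%, all with intervals that included 0. With the thalamus score as covariate and without intact replicates 1, 3 and 5, respectively, the log2 difference of Mbp went from 0.07 to 0.17 and 0.16, that of Cnp from 0.05 to 0.09 and 0.07, that of Mobp from 0.05 to 0.08 and 0.08, and that of Mag from 0.0031 to 0.047 and 0.040. Opalin turned to 0.021 and 0.0098, and none of the 9 was called in either setting, where 0.108% and 0.0514% of all genes were.

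AAV-SIRT3 against intact mice was the comparison with calls among the myelin genes: Cldn11, Mobp and Mal were higher, none was lower, and 6 did not pass. Over all genes tested 21.7% passed, 11.3% as higher and 10.3% as lower, so the 3 of 9 stand beside a background in which more than 1 gene in 10 was higher. DESeq2 on the recovered reads called the same 3 genes, with 23.7% of all genes called and 12.1% higher. The median of the 9 was 0.11 with 6 above 0, against -0.0049 and 49.1% above 0 over all genes. This comparison shares its intact libraries with the previous one and its AAV-SIRT3 libraries with the first, so the 3 are not independent.

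Cldn11 had 15537, 16254 and 17528 normalised reads in intact mice (lowest, median, highest) and 17259, 18849 and 19915 after AAV-SIRT3. Of the AAV-SIRT3 libraries 1, replicate 4, lay below the highest intact library, and 35 of 36 pairings of an AAV-SIRT3 with an intact library were higher with AAV-SIRT3. The log2 difference was 0.20 (SE 0.039, adjusted p = 0.00174 in limma), a level 1.15-fold that of intact mice, with an interval of 8.70 to 21.7% above it. Mobp had 121041, 123713 and 137205 in intact mice and 134732, 140035 and 154818 after AAV-SIRT3, again with 35 of 36 pairings higher and replicate 4 as the library within the intact range. Its log2 difference was 0.18 (SE 0.050, adjusted p = 0.0157 in limma), or 13.2% (5.24 to 21.7%). Mal had 30687, 32011 and 33573 in intact mice and 33083, 36101 and 39271 after AAV-SIRT3, with 33 of 36 pairings higher and 4 of 6 AAV-SIRT3 libraries above every intact one. Its log2 difference was 0.17 (SE 0.048, adjusted p = 0.0186 in limma), or 12.2% (4.65 to 20.3%).

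The other 6 genes gave intervals on both sides of 0 or missed the threshold. Mog lay at 0.12 (adjusted p = 0.0749 in limma), with 8158 to 9671 normalised reads in intact mice and 8601 to 10141 after AAV-SIRT3. Mbp lay at 0.11 (adjusted p = 0.294 in limma) and Cnp at 0.09 (adjusted p = 0.219 in limma). Mbp lay at 0.21 (adjusted p = 0.117) with the thalamus score as covariate and at 0.20 (adjusted p = 0.0805) without intact replicates 1, 3 and 5. Intact replicate 1 bore on 2 of these: without it Mbp lay at 0.17 with an adjusted p of 0.0452 and Mog at 0.15 with an adjusted p of 0.0279 in limma, and 5 of 9 genes were called. Mog was also called without AAV-SIRT3 replicate 4, at 0.15 with an adjusted p of 0.0270. Mag, at -0.02 (interval -8.71 to 6.65%), Ermn, at -0.01 (-10.6 to 10.6%), and Opalin, at -0.03 (-13.8 to 11.7%), had estimates near 0 that turned above 0 with the thalamus score as covariate and without intact replicates 1, 3 and 5. Whether the differences of the called and uncalled members differ from each other was not tested.

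**Figure D2:**
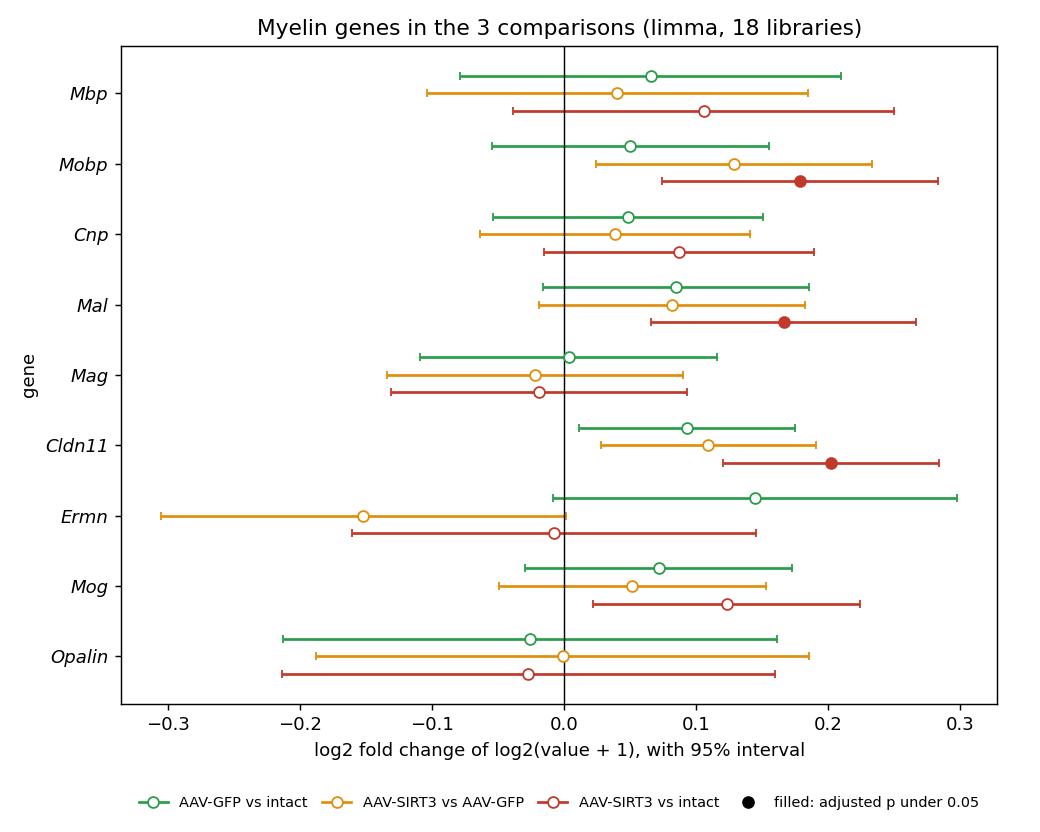
Log2 fold change (horizontal axis) of each of the 9 myelin genes (rows) in the 3 comparisons, with 95% intervals from limma on log2(value + 1); filled points have an adjusted p under 0.05. The 3 filled points are Mobp, Mal and Cldn11 in AAV-SIRT3 against intact mice, from 0.17 to 0.20.

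The thalamus genes moved with the same contrast. Of the 7 genes, 6 were higher after AAV-SIRT3 than in intact mice and 2 after AAV-GFP, and none was called between AAV-SIRT3 and AAV-GFP; no gene of the list was under 10 normalised reads in every library of a group. Their summed level ranged from 25046 to 63322 normalised reads in intact mice, from 51775 to 60532 after AAV-GFP and from 47106 to 67386 after AAV-SIRT3. With the thalamus score as covariate 1 of the 9 myelin genes was called, Cldn11 at 0.22 (adjusted p = 0.0149 in limma), against 8.55% of all genes (4.53% higher). Mobp was then at 0.21 (adjusted p = 0.0506) and Mal at 0.15 (adjusted p = 0.127). Without intact replicates 1, 3 and 5, an alternative chosen after seeing the data, Cldn11 lay at 0.24 (adjusted p = 0.0142) and Mobp at 0.21 (adjusted p = 0.0375) and were called, and Mal lay at 0.17 (adjusted p = 0.0888), against 8.67% of all genes (4.48% higher). With the length and GC trend of each library removed the same 3 genes were called, against 23.6% of all genes and 17.6% higher. Of 5 anterior pituitary genes 4 were lower after AAV-SIRT3 than in intact mice, with summed levels of 724 to 5414 normalised reads in intact mice, 240 to 690 after AAV-GFP and 229 to 787 after AAV-SIRT3. Of 5 choroid plexus genes 2 were lower, with sums of 894 to 47955, 562 to 42343 and 545 to 1713; the part of pituitary and choroid plexus RNA in the myelin results was not tested.

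**Figure D3:**
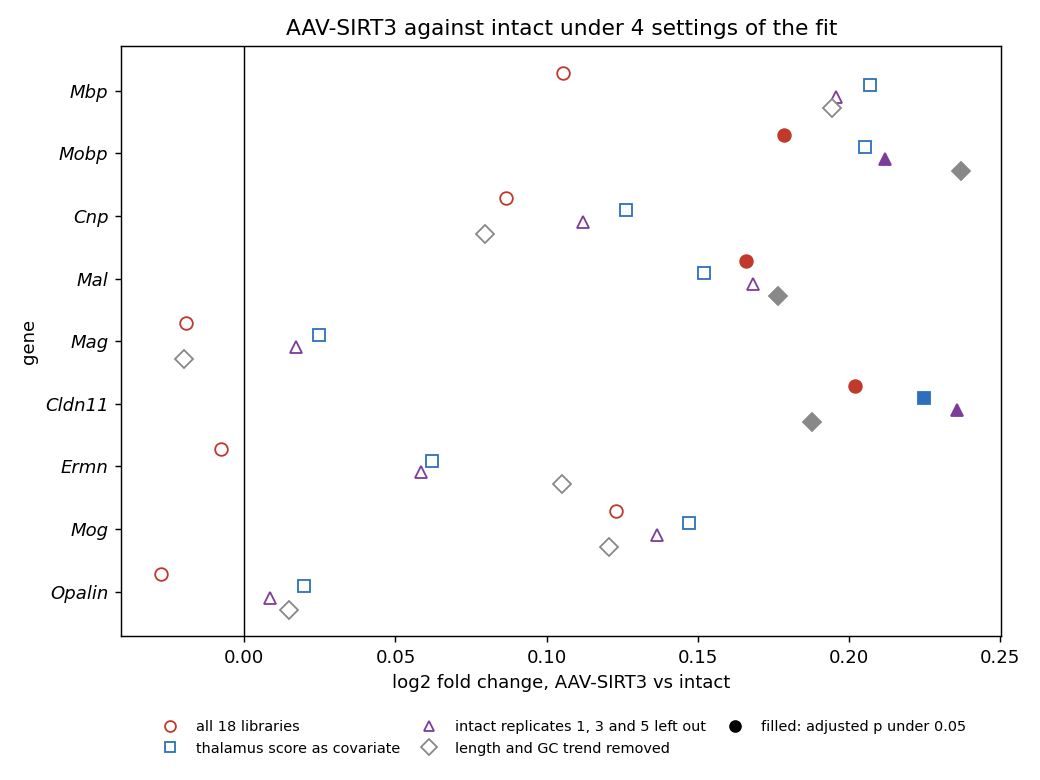
Log2 fold change of the 9 myelin genes (rows) in AAV-SIRT3 against intact mice under 4 settings: all 18 libraries, thalamus score as covariate, intact replicates 1, 3 and 5 left out, and length and GC trend removed; filled symbols have an adjusted p under 0.05. Cldn11 is filled in all 4 settings, Mobp in 3 and Mal in 2.

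Single libraries moved most of the 9 genes together. Intact replicate 1 held the highest intact value of 6 of 9 genes, and its log2 level lay 0.14 above the group mean on average over the 9. Ermn and Mbp deviated most there, at 14442 and 467731 normalised reads, while Mal was the lowest of its group in that library, at 30687. AAV-GFP replicate 3 lay above its group mean for 9 of 9 genes, by 0.12 on average. AAV-SIRT3 replicate 4 held the lowest AAV-SIRT3 value of 7 of 9 genes, lay at -0.12 on average, and was above its group mean for Mal alone.

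**Figure D4:**
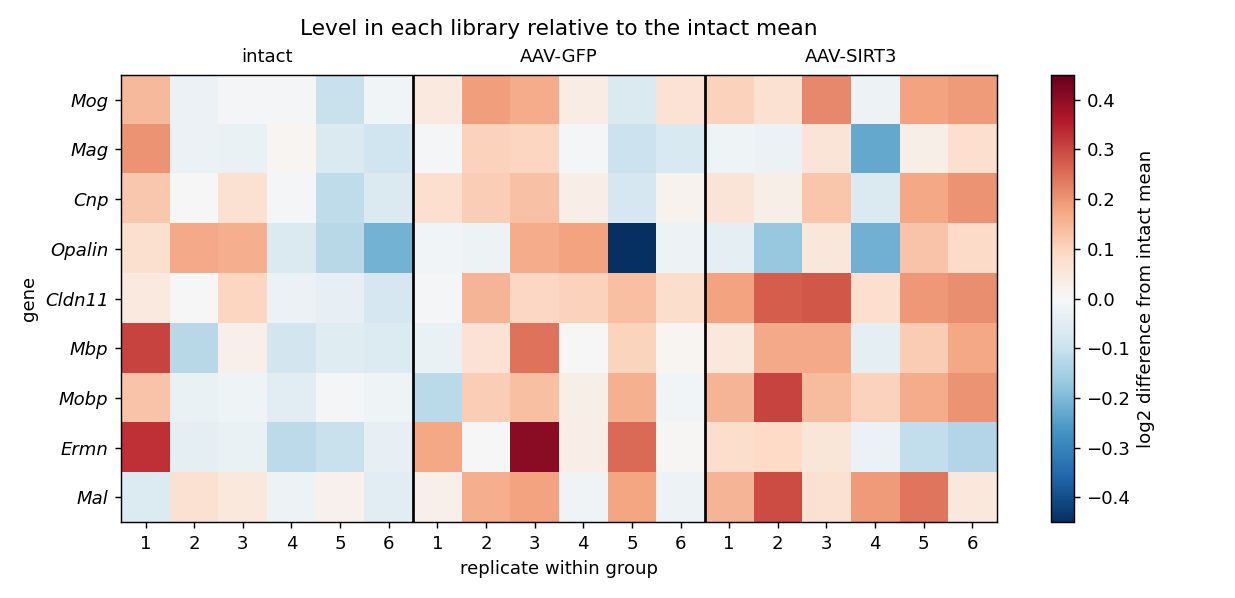
Log2 difference of each library from the intact mean (colour scale, red above and blue below) for the 9 myelin genes (rows) in the 18 libraries (columns, replicates 1 to 6 of each group). Intact replicate 1 is red for 8 of 9 genes, AAV-GFP replicate 5 is darkest blue for Opalin, and Cldn11 is red in every AAV-SIRT3 library.

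With group means subtracted, the 36 pairs of the 9 genes had a median Pearson r of 0.42 over the 18 libraries, from -0.21 to 0.91, and 30 were above 0. The points of each pair come from the same libraries and share their size factors, so these values are a description. Mog, Mag and Cnp formed the tightest set, with r of 0.87 to 0.91 and Spearman rho of 0.82 to 0.83. Mal stood apart from it, with r of -0.21 to 0.45 with the other 8 genes. Relative to the mean log2 level of all 9 in the same library, Cldn11 lay at -0.86 to -0.70 in intact mice and at -0.69 to -0.60 after AAV-SIRT3. These ranges lay close together without overlap, while those of the other 8 genes overlapped. After AAV-GFP Cldn11 lay at -0.85 to -0.64, which overlapped both. How often such ranges stay apart over all genes was not counted. The contrast of Cldn11 between AAV-SIRT3 and intact mice was chosen after its values were seen and carries no test.

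Genes outside the 9 were ranked by how closely they followed them, as the Pearson r between each gene and the mean standardised level of the 9 over 18 libraries, group means subtracted. Among the most alike of 19434 genes were Gltp (r = 0.91), Sirt2 (0.90), Tmbim1 (0.87), Csrp1 (0.87), Lpar1 (0.85), Plekhb1 (0.85) and Prrg2 (0.84). Sirt2 encodes a cytoplasmic deacetylase of the same family as SIRT3. Its own log2 difference was -0.019 in AAV-SIRT3 against AAV-GFP and 0.032 in AAV-GFP against intact mice. In AAV-SIRT3 against intact mice it was 0.013, and Sirt2 was called in none of these. The 3 most unlike were 2900060N12Rik (-0.84), Gm48485 (-0.81) and 1700058P15Rik (-0.80). By list, the median r was 0.68 for 16 metabolic and secreted genes of mature oligodendrocytes, 0.51 for 10 oligodendrocyte transcription factors, 0.48 for 17 other myelin and oligodendrocyte membrane genes and 0.44 for 12 genes of myelin lipid synthesis. It was 0.38 for 5 dopaminergic and 0.35 for 7 neuronal markers, close to that of lipid synthesis, and 0.17 for 10 oligodendrocyte genes of gap junctions and axon contact. The median was 0.25, 0.22, 0.20, 0.18, 0.14 and 0.06 for the pituitary, microglial, endothelial, Schwann cell, choroid plexus and astrocyte lists. It was -0.09 for 12 precursor and premyelinating genes and -0.32 for the 7 thalamus genes, and 0.0023 over all genes outside the 9.

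The wider set of oligodendrocyte genes gave the setting of the 9. Between AAV-SIRT3 and AAV-GFP, limma called 0 of 17 other myelin and membrane genes, 0 of 16 metabolic and secreted genes, 0 of 12 lipid synthesis genes, 0 of 10 transcription factors, 0 of 10 genes of gap junctions and axon contact and 0 of 12 precursor genes. At an unadjusted p under 0.05 these counts were 2, 1, 1, 0, 0 and 0, together 5.19% of the 77 genes against 15.2% of all genes; edgeR also called 0 in each list and DESeq2 called 1, among the membrane genes.

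Between AAV-GFP and intact mice, where 1.84% of all genes passed, 1 of the 17 membrane genes was higher, Cd9, a tetraspanin, at 2746 ± 103 normalised reads in intact mice and 3359 ± 276 after AAV-GFP (log2 difference 0.29, adjusted p = 0.00431 in limma). This call was lost with the thalamus score as covariate and without intact replicates 1, 3 and 5, where Cd9 kept its estimate (0.28 and 0.29). Of all genes 0.108% and 0.0514% were called in these 2 settings. None of the metabolic genes, transcription factors, contact genes or precursor genes was called by limma in that comparison.

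Between AAV-SIRT3 and intact mice 14 of the 77 genes of these lists passed, 18.2%, against 21.7% of all genes. Of these calls 8 were higher and 6 lower. Among them 2 of the 17 membrane genes were higher (Evi2a at 0.24 and Plekhb1 at 0.16) and 1 was lower, Adamts4, a secreted protease, at -0.27. Of 16 metabolic genes 2 were higher: Gamt, an enzyme of creatine synthesis, at 0.24, and Glul, glutamine synthetase, at 0.18. Of 12 lipid genes 1 was lower, Elovl7, a fatty acid elongase, at -0.25. Of the transcription factors 2 of 10 were higher, Tcf7l2 at 0.65, which thalamic neurons also express, and Olig1 at 0.14. Of the contact genes Jam3 was higher at 0.16, and Cntnap2 (-0.16) and Nfasc (-0.16) were lower. Of the precursor genes Tnr (-0.31) and Vcan (-0.22), both of the extracellular matrix, were lower and Lhfpl3 higher at 0.13. Of these 14 calls 6 were lost with the thalamus score as covariate, among them Tcf7l2 at 0.15, and 8 without intact replicates 1, 3 and 5. In these 2 settings 11.7% and 9.09% of the 77 genes were called, against 8.55% and 8.67% of all genes. Calls fell over all genes too, so the losses alone are no result about these lists. With the length and GC trend removed Nfasc lay at -0.01, Cntnap2 at -0.05, Vcan at -0.07 and Olig1 at 0.08, and none of these 4 was called. The calls of Evi2a, Glul and Tnr held in these 3 settings and without each of the 18 libraries in turn. That of Plekhb1 held in these 3 settings and was lost in 9 of the 18 fits that left out a library, with adjusted p up to 0.0926, and without a filter, with 2 groups in the fit and with the replicate block. The median log2 difference of the 6 lists ran from -0.09 to 0.05, beside 0.11 for the 9 myelin genes and -0.0049 for all genes.

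Markers of Schwann cells, which make peripheral myelin with some of the same proteins, were low throughout. The 6 markers, 4 of which passed the filter, summed to 149 to 220 normalised reads in intact mice, 133 to 189 after AAV-GFP and 94.7 to 173 after AAV-SIRT3, against sums of 611745 or more for the 9 myelin genes. Pmp2, a lipid-binding protein of peripheral myelin, did not exceed 1.83 normalised reads in any library. Ncmap was the marker that changed, lower after AAV-SIRT3 than in intact mice by -0.45 (adjusted p = 0.0378 in limma), and none of the 4 was called with the thalamus score as covariate or without intact replicates 1, 3 and 5. Markers of other cells in the tissue were read from the same limma fit. Between AAV-SIRT3 and AAV-GFP 0 of 7 neuronal, 0 of 5 dopaminergic, 0 of 6 astrocyte and 0 of 5 endothelial markers were called. Of all genes 0.113% passed in that comparison. After AAV-GFP, against intact mice, limma called 1 of 6 microglial and 1 of 6 astrocyte markers higher and 1 of 5 dopaminergic markers lower. Of all genes 1.84% passed there, 0.823% as higher and 1.02% as lower. After AAV-SIRT3, against intact mice, it called 1 of 7 neuronal and 2 of 6 microglial markers higher. Of 5 endothelial markers 1 was called higher and 2 lower. In this comparison 21.7% of all genes passed, 11.3% as higher and 10.3% as lower. With the thalamus score as covariate and without intact replicates 1, 3 and 5, none of the markers called after AAV-GFP passed. Only 0.108% and 0.0514% of all genes passed in that comparison under these settings, so these losses are no result about the markers. The median log2 difference of the dopaminergic markers went from -0.28 to -0.05 and -0.07. In these settings the counts of neuronal and microglial calls after AAV-SIRT3 were as before, and both lower endothelial calls were lost. The higher endothelial count was 0 with the score and 1 without the 3 libraries. Of all genes 8.55% and 8.67% passed between AAV-SIRT3 and intact mice in these 2 settings. The part of these cells in the myelin results was not tested.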

How the data were processed

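RNA of the substantia nigra of 18 mice (6 per group, 1 library per mouse) had been measured. Per the submitters' processing notes the tools were HISAT2 2.1.0 and DESeq2 1.34.0 with build mm10; the gene annotation and the strand setting are not given in the sources used here. The deposited signal values are HTSeq reads per gene divided by 1 DESeq2 size factor per library, per the file headers and name. All values were whole reads after multiplying by the recovered factor (largest deviation 4.7e-09 reads).

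Genes with at least 10 normalised reads in at least 6 libraries were tested (19443 of 55270). The test was limma 3.58.1 with trend (R 4.3.3) on log2(value + 1), 18 libraries in 1 fit, Benjamini-Hochberg adjusted at 0.05; the pseudocount of 1 hardly moves genes at these levels. The script was tested on simulated data. Intervals are 95% limits of limma's coefficient, and percentages are back-transformed from it. Alternatives were count tests on the recovered reads (edgeR 4.0.16, DESeq2 1.42.0), TMM factors, a pseudocount of 10, no filter, 2 groups in the fit, a replicate block, the thalamus score, removal of each library's length and GC trend, each library left out, and, chosen after seeing the data, intact replicates 1, 3 and 5 left out.

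The members and all gene lists were chosen with earlier results of these data known. Named genes were all members, the called genes of each list (at most the 4 largest), and the 8 most and 3 least alike; some of these are not reported here. No replicate pair of libraries agreed within counting noise (chi-square per degree of freedom 8.09 to 36.4).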

Additional observations from a re-analysis of the deposited data

Results flagged for a closer look

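In groups of 6 libraries, a highest or lowest library was picked out by Dixon's ratio, the distance to its neighbour over the range of the group, at the 95% critical value. This held in 15 of 96 gene groups, and for the 9 myelin genes in 7 of 27. Chance gives about 1 in 20 for independent groups. These groups share their libraries, and Gltp, Sirt2, Lpar1 and Plekhb1 were taken because they follow the 9 genes across them, so the counts cannot be read against that share.

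Intact replicate 1 accounted for 5 of these 7, as the highest library of its group: Mbp at 467731 normalised reads, Mog at 9671, Mag at 32935, Mobp at 137205 and Ermn at 14442. It was also the highest for Adamts4 (4342), Plekhb1 (49933), Gltp (5282), Sirt2 (12897) and Lpar1 (5803). Its thalamus score was among the 3 lowest; intact replicates 3 and 5, with scores as low, were not singled out for any of these genes.

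AAV-SIRT3 replicate 4 was the lowest of its group for Mag at 24423 and for Lpar1 at 4130. AAV-GFP replicate 5 was the lowest for Opalin at 2546, and AAV-GFP replicate 3 the highest for Lpar1 at 5415. Adamts4 was lowest in AAV-SIRT3 replicate 6, at 2479. The cause of these values was not tested.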

How the results depend on the processing

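Cldn11, Mobp and Mal stayed above intact mice after AAV-SIRT3 and were called without each of the 18 libraries in turn and under all other settings run, except Mobp and Mal with the thalamus score and Mal without intact replicates 1, 3 and 5. The count of myelin genes called there was 3 to 5 over the leave-one-out fits (5 without intact replicate 1) and 1 with the thalamus score; in the other 2 comparisons it was 0 under every setting run. Over all genes, AAV-SIRT3 against AAV-GFP gave 22 calls (7 higher, 15 lower), 311 with DESeq2, 8 with 2 groups in the fit, 179 with the length and GC trend removed (140 higher, 39 lower), and 5 (without AAV-SIRT3 replicate 5) to 861 (without AAV-GFP replicate 2) when libraries were left out. AAV-GFP against intact gave 358 (160 higher, 198 lower), 999 with DESeq2, 164 without filter, 199 with 2 groups, 21 with the thalamus score, 10 without intact 1, 3 and 5, and from 129 (intact replicate 3 left out) up to 686 (AAV-GFP replicate 1 left out); the trend removal gave 289 higher and 147 lower. AAV-SIRT3 against intact gave 4214 (2206 higher, 2008 lower), 1663 with the thalamus score, 1686 without intact 1, 3 and 5, and 3279 to 4633; the trend removal gave 3325 higher and 1128 lower. The replicate block, under which 13 genes were called between AAV-SIRT3 and AAV-GFP, left the myelin calls as they were. Same-numbered libraries correlated at -0.10 to 0.18, and 1 of 18 pairs was best with its own number. These values gave no sign of pairing by number. They cannot exclude it, as the labels do not say what the numbers stand for. Estimates near 0 changed sign. AAV-GFP against intact: Mag -0.0039 (edgeR), -0.0026 (TMM) and -0.0027 (trend removed), Opalin 0.021 (thalamus score) and 0.0098 (intact 1, 3 and 5 left out). AAV-SIRT3 against AAV-GFP: Opalin 0.036 (trend removed). AAV-SIRT3 against intact: Mag 0.025 and 0.017, Ermn 0.062 and 0.059, Opalin 0.020 and 0.0084 (thalamus score, then intact 1, 3 and 5 left out), Ermn 0.11 and Opalin 0.015 (trend removed). Over leave-one-out fits the ranges were, for AAV-SIRT3 against AAV-GFP, Mag -0.042 to 0.020 and Opalin -0.086 to 0.040; for AAV-GFP against intact, Mag -0.017 to 0.043 and Opalin -0.068 to 0.058; for AAV-SIRT3 against intact, Mag -0.038 to 0.023, Ermn -0.031 to 0.058 and Opalin -0.070 to 0.010. The causes were not tested. Calls needed an adjusted p under 0.05, so a difference beyond the half-width of the unadjusted intervals given above could still miss that threshold. Examples were Mobp and Cldn11 in AAV-SIRT3 against AAV-GFP, and Mog in AAV-SIRT3 against intact mice. With 6 mice per group smaller differences may have been missed. Counting error is small at these depths.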
